A study of Mus musculus with 4 samples.

Results

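Regions of the mouse genome where Insm1 and Neurod1 sites overlapped, with no Foxa2 site, were described in a pancreatic beta cell line. All sites in the 3 deposited lists, of Insm1, Neurod1 and Foxa2, were merged wherever they overlapped by at least 1 bp, which gave 39412 union regions. The members are the 2957 regions (7.50%, 95% Wilson interval 7.25 to 7.77%) that held an Insm1 site and a Neurod1 site and no Foxa2 site. They were chosen by the site calls themselves, so their number, and the absence of Foxa2 from them, are a description and not a finding. With only sites above the median score of their lists, Foxa2 sites included, 1470 regions met the rule. These include regions whose weaker Foxa2 site was left out, as only 905 of the 2957 members had both sites above the median. Of 9622 regions with Insm1 and Neurod1, 30.7% held no Foxa2 site. That share was 43.7% of all 17453 regions with Insm1 and 43.6% of all 14607 regions with Neurod1, and nothing is read from the difference, because the rule used the same calls.

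Chromatin immunoprecipitation followed by sequencing (ChIP-seq) recovers and sequences the DNA that a protein is bound to. There was 1 sample each for an antibody to Insm1, to Neurod1 and to Foxa2, and 1 with control IgG, which has no site list in use here. All came from a line grown out of islets of RIP1-Tag2 transgenic mice 6 weeks old, on a mixed C57BL/6, 129/ola and CBA/J background. In these mice an insulin promoter drives a viral oncogene, so the line comes from islets that carried that oncogene. They were used at passages 10 to 15 in medium with 25 mmol/l glucose, and no treatment or genotype differed between the samples. No expression was measured, so the cell type could not be checked against its markers.

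Insm1, made by developing and mature endocrine cells and by neurons, binds DNA through zinc fingers and is known mainly as a repressor of transcription. Neurod1 is a basic helix-loop-helix activator that pairs with ubiquitous E proteins on E-box sequences and takes part in transcription of the insulin genes. Foxa2 is a forkhead factor that can bind closed chromatin and open it for others, and it acts throughout pancreas development and in mature beta cells.

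Each list gives a start, an end, an inner position read as the summit, and a whole-number score per site. The scores are the authors' own, of a definition not given in the sources used here. They are therefore quoted as deposited and as percentiles within their own list, where 100 is the strongest, and never compared as levels between lists. With 1 list per factor there is no spread between replicates and no test. Intervals on shares are 95% Wilson intervals and those on medians are binomial intervals of the order statistics, and all cover counting error only. How many reads lie behind each call is unknown. Coordinates are those of the mm9 build, as deposited. No mm9 sequence or gene annotation was used here, so regions are named by position.

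Every member held exactly 1 Insm1 site and 1 Neurod1 site. They made up 16.9% of the Insm1 list (16.4 to 17.5%) and 20.2% of the Neurod1 list (19.6 to 20.9%). Members had a median width of 185 bp (183 to 186 bp), with a range of 54 to 482 bp. The 6665 regions with all 3 factors had a median of 248 bp (246 to 250 bp), but their width takes in the Foxa2 site as well. The sites themselves were also narrower in members than in regions with all 3 factors. The median Insm1 site was 170 bp (168 to 172 bp) in members and 192 bp (191 to 193 bp) in regions with all 3 factors. The median Neurod1 site was 139 bp (137 to 141 bp) in members and 164 bp (163 to 165 bp) with Foxa2 present. Sites in regions with a single factor were narrower still, with medians of 154 bp for Insm1 alone and 114 bp for Neurod1 alone. Neurod1 sites under 100 bp made up 24.5% of members (23.0 to 26.1%), against 10.7% (10.0 to 11.5%) of regions with all 3 factors.

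Within members the narrower site usually lay wholly or nearly wholly inside the wider one, with a median of 100% of its length shared and a lower quartile of 91.0%. The sites shared a median of 122 bp (120 to 124 bp), with quartiles of 87 and 150 bp. In 1235 members (41.8%) the Neurod1 site fell wholly inside a wider Insm1 site, and the reverse held in 250 (8.45%, 7.50 to 9.51%). The Neurod1 summit lay inside the Insm1 site in 94.96% of members (94.1 to 95.7%). Marginal overlaps were rare, with 9 members sharing at most 10 bp and a smallest overlap of 2 bp. On the other side of that threshold, 16 of the 4667 regions with Insm1 alone had a Neurod1 site within 10 bp that did not overlap.

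The Insm1 and Neurod1 summits lay a median of 31 bp apart in members (30 to 33 bp), with quartiles of 13 and 57 bp. They fell on the same base in 52 members, within 10 bp of each other in 590 (20.0%, 18.6 to 21.4%) and within 25 bp in 1267 (42.8%, 41.1 to 44.6%). Only 176 members (5.95%, 5.16 to 6.86%) had summits over 100 bp apart. The order of the summits along the chromosome was even, with Insm1 at the higher coordinate in 1433 of 2905 members without a tie (49.3%, 47.5 to 51.1%). Regions with all 3 factors, taken at the 6636 whose Insm1 and Neurod1 sites overlapped, gave nearly the same median, 30 bp (29 to 31 bp), and 44.1% within 25 bp (42.9 to 45.3%).

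**Figure D1:**
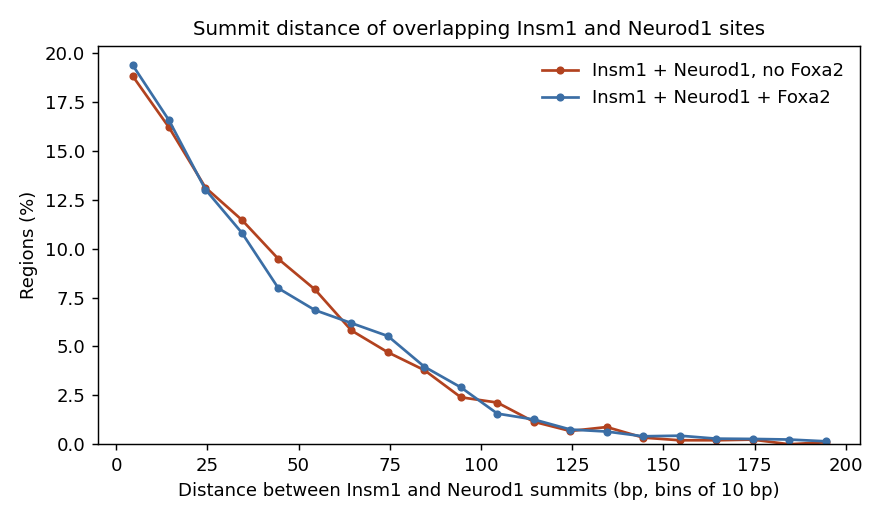
Share of regions (%) by distance between the Insm1 and Neurod1 summits, in bins of 10 bp up to 199 bp, for the 2957 regions without Foxa2 and the 6636 regions with all 3 factors whose Insm1 and Neurod1 sites overlap. Both curves are highest in the first bins and nearly coincide, with medians of 31 bp without Foxa2 and 30 bp with it.

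Site width sets how far apart summits can lie, and sites were narrower in members than in regions with all 3 factors. The distances were therefore also read at like widths of the narrower site. In the narrowest class, 46 to 120 bp, the median distance was 26.5 bp in 1204 members (24 to 29 bp) and 27 bp with all 3 factors (24 to 29 bp). From 121 to 151 bp it was 32 bp in members (29 to 34 bp) and 28 bp with all 3 factors (26 to 29 bp). From 152 to 175 bp it was 33 bp in members (29 to 36 bp) and 29 bp with all 3 (27 to 30 bp). In the widest class, 176 to 381 bp, it was 47 bp in 359 members (41 to 55 bp) and 37 bp in 1975 regions with all 3 factors (35 to 40 bp). By the median, summits in members were thus a little farther apart at like width in all but the narrowest class. Only in the widest class did the intervals of the medians stand apart without touching. For the share within 25 bp they stood apart only from 121 to 151 bp. That share was 40.9% (37.57 to 44.26%) in members and 46.9% (44.42 to 49.37%) with all 3 factors.

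Members with close summits had stronger Insm1 sites. The median Insm1 percentile was 61.0 (58.7 to 63.6) in the 590 members with summits within 10 bp, 57.2 at 11 to 50 bp, 50.3 at 51 to 100 bp, and 43.7 (36.7 to 48.9) in the 176 members with summits over 100 bp apart. Their median Insm1 site width ran the other way along the same classes, with 160, 169, 176 and 198.5 bp. The part of width and of the precision of a weak summit in this order was not tested. For Neurod1 the percentiles were closer together, with 50.7 (47.2 to 56.6) within 10 bp and 40.7 (36.4 to 47.2) over 100 bp.

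Scores are treated as part of the rule, since a site may enter a list by its score, and are given as a description. Members spanned both lists from bottom to top. Their Insm1 scores ran from 76 to 1211 with a median of 139, which is percentile 56.1 (54.3 to 57.2) of the Insm1 list. Their Neurod1 scores ran from 46 to 830 with a median of 69, which is percentile 45.9 (44.6 to 47.2) of the Neurod1 list. Among only the sites above the median of each list, Foxa2 included, 1470 regions met the rule. Their Neurod1 median was percentile 76.9 of the whole list, since weaker sites are then left out. With all sites, members sat a little above the middle of the Insm1 list and a little below the middle of the Neurod1 list. In regions with all 3 factors the medians were percentile 70.3 for Insm1 and 65.3 for Neurod1. In regions with a single factor they were 29.9 for Insm1 alone and 33.3 for Neurod1 alone. Members lay between these classes for both factors. In regions with Foxa2 and only 1 of the partners, the medians were also below those of the members. They were percentile 36.7 for Insm1 with Foxa2 and 33.3 for Neurod1 with Foxa2.

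Strong sites of both factors at the same place were uncommon without Foxa2. Both sites lay in the top 10% of their lists in 67 members (2.27%, 1.79 to 2.87%), against 615 regions with all 3 factors (9.27%, 8.59 to 9.99%). The lists were each cut into classes of 20% by score. Across 9593 regions with overlapping Insm1 and Neurod1 sites, the share without Foxa2 was lowest where both were strong. It was 12.4% (10.9 to 14.2%) of 1537 regions with both sites in the top 20% and 46.0% (40.2 to 51.9%) of 274 regions with both in the bottom 20%. A strong site of only 1 of the factors went with intermediate or high shares. With Insm1 in its top 20% and Neurod1 in its bottom 20%, 48 of 150 regions (32.0%, 25.1 to 39.8%) had no Foxa2. In the opposite corner, with Neurod1 in its top 20% and Insm1 in its bottom 20%, 28 of 49 (57.1%, 43.3 to 70.0%) had none. In the top 10% of the Insm1 list, at scores of 266 and above, 16.1% (14.4 to 18.05%) of regions lacked Foxa2, and 47.8% (42.9 to 52.8%) did so in the bottom 10%, at scores of 76 to 86.

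**Figure D2:**
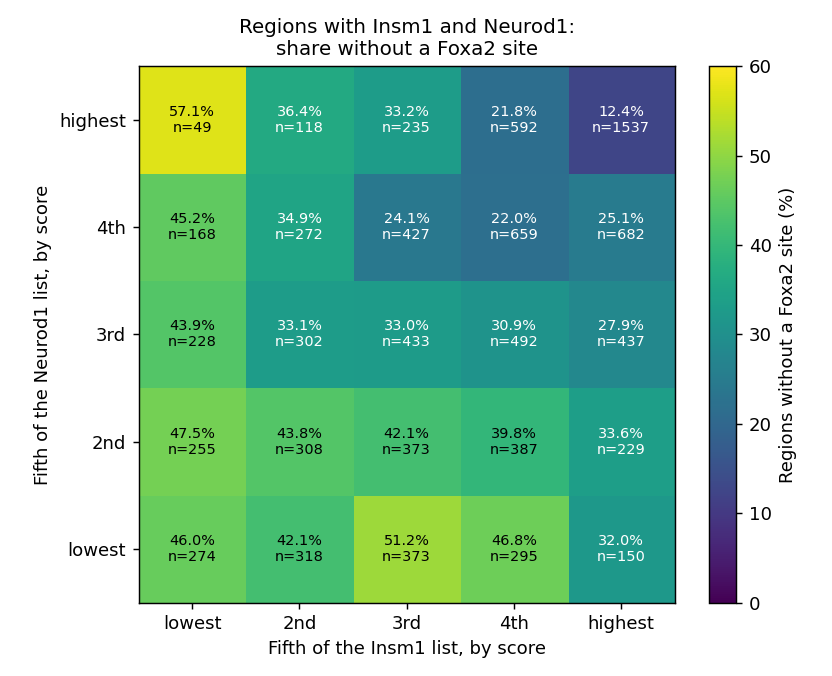
Percentage of regions with overlapping Insm1 and Neurod1 sites that hold no Foxa2 site, by class of 20% of the Insm1 score (x axis) and of the Neurod1 score (y axis), each class taken over its whole list, with the number of regions in each cell. The lowest share, 12.4%, is in the top class of both lists, and the highest, 57.1% of 49 regions, is in the top class of Neurod1 and the bottom class of Insm1.

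The scores of the paired sites were loosely related in members. Spearman's rho between Insm1 and Neurod1 scores was 0.30 over 2957 members, and 0.51 over the 6636 regions with all 3 factors. With both sites above the medians of their lists it was 0.19 over 905 members and 0.43 over 3563 regions with all 3. The points share 2 libraries and their local chromatin, so the values are descriptions. Both sites lay above the median of their list in 30.6% of members and both below it in 28.3%. Insm1 alone was above in 767 members (25.9%, 24.4 to 27.5%) and Neurod1 alone in 448 (15.2%, 13.9 to 16.5%). The Insm1 percentile exceeded the Neurod1 percentile by over 50 points in 257 members and fell short of it by over 50 points in 141.

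The members in which both factors ranked highest are named by the lower of their 2 percentiles, leaving out sites of at most 60 bp and chromosome 18. The first (chromosome 13, 116136932 to 116137192) scored 1054 for Insm1 and 723 for Neurod1, both at percentile 99.9, and its summits lay 28 bp apart. It held no Foxa2 site, yet one of the strongest Foxa2 sites of its list (score 1265, percentile 99.9) lay 201 bp away, at 116136512 to 116136731. The second, on chromosome 6 at 119008553 to 119008721, had scores of 566 for Insm1 and 635 for Neurod1 and a weak Foxa2 site (score 32) 6371 bp away.

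The third, on chromosome 11 at 86665395 to 86665541, had the highest Insm1 score of any member, 1211, a Neurod1 score of 395 and both summits on base 86665503. A Foxa2 site scoring 276 lay 312 bp from it. The fourth, on chromosome 8 at 117853625 to 117853824, had scores of 512 for Insm1 and 441 for Neurod1 and stood 48.8 kb from the nearest Foxa2 site, which scored 21. The fifth, on chromosome 19 at 17153524 to 17153766, had scores of 505 for Insm1 and 537 for Neurod1, with a Foxa2 site of score 481 at 418 bp. The sixth, on chromosome 7 at 30794769 to 30794964, had scores of 461 for Insm1 and 622 for Neurod1, with a Foxa2 site of score 168 at 144 bp. Of these 6 members, 4 therefore had a Foxa2 site within 500 bp, against 285 of all 2957 members (9.64%, 8.63 to 10.8%). Nothing is read from 6 regions chosen by rank. Among the 67 members with both sites in the top 10%, 22 had one that near (32.8%, 22.8 to 44.7%). Single-factor regions in the top 10% of their list gave similar shares, 33.9% with Insm1 alone and 32.3% with Neurod1 alone.

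Stronger members more often had Foxa2 close by. A Foxa2 site lay within 1 kb of 8.11% (6.55 to 10.0%) of the 962 members whose lower percentile was at most 20. The share was 10.6% from 20 to 40, 15.7% from 40 to 60 and 20.2% from 60 to 80. It was 30.9% (24.8 to 37.8%) of the 191 members above 80, and 30 of the 67 members with both sites in the top 10% (44.8%, 33.5 to 56.6%). The same order was seen at regions with a single factor. With Insm1 alone the share was 6.95% (5.81 to 8.28%) in the bottom 20% of the list and 28.5% (22.5 to 35.4%) in the top 20%. With Neurod1 alone it was 14.5% (12.6 to 16.7%) in the bottom 20% and 32.7% (27.4 to 38.6%) in the top 20%. The intervals of the top classes overlap, so this measure does not tell the strongest members from strong single-factor regions. At percentiles 40 to 60 and 60 to 80, Insm1 alone had 9.64% and 11.4%, with intervals below those of the members. Neurod1 alone had 17.8% and 19.5% there, with intervals that overlap those of the members. The classes are unlike, since members are ranked by the lower of both percentiles.

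**Figure D3:**
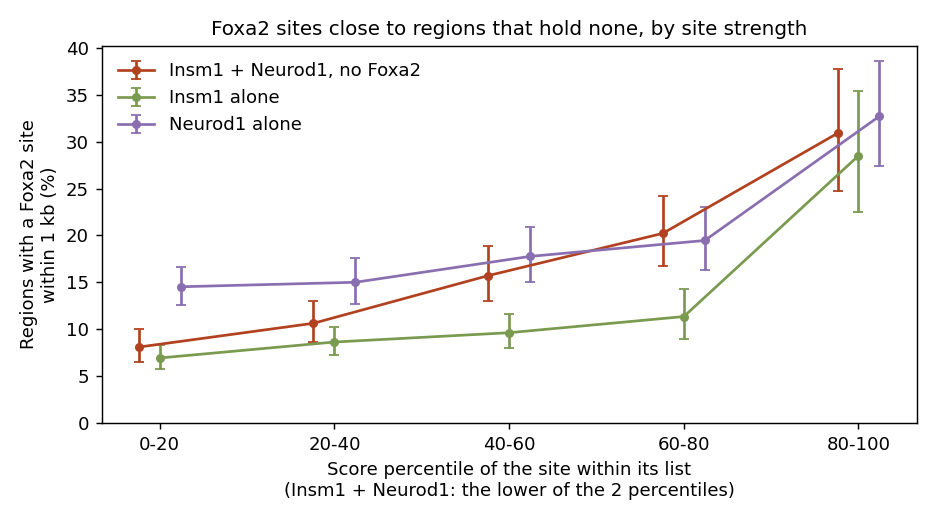
Percentage of regions without a Foxa2 site of their own that have one within 1 kb, by score percentile within the list, with 95% Wilson intervals. For regions with Insm1 and Neurod1 the lower of the 2 percentiles is used, and the share there is 8.11% in the lowest class and 30.9% in the highest.

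Over all members the nearest Foxa2 site was a median of 15782 bp away (14571 to 16972 bp), with quartiles of 3939 and 45073 bp. It lay within 100 bp of 98 members (3.31%, 2.73 to 4.02%), within 1 kb of 402 (13.6%, 12.4 to 14.9%) and within 10 kb of 1216 (41.1%, 39.4 to 42.9%). With the Foxa2 list limited to its 14607 best sites, which has fewer sites to be near, the share within 10 kb was 23.9% (22.6 to 25.2%) of 4323 members. Regions with Insm1 alone had fewer near Foxa2 sites, 9.36% within 1 kb (8.56 to 10.2%) and 34.1% within 10 kb (32.7 to 35.4%). Regions with Neurod1 alone had more within 1 kb, 17.5% (16.2 to 18.8%), and 43.6% within 10 kb (41.9 to 45.3%). Members stood between these classes at 1 kb.

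Foxa2 summits were densest next to the members and thinned out with distance. Per 100 members there were 8.69 Foxa2 summits per kb in the first 500 bp beyond the region's edges, 4.19 from 500 to 1000 bp, 2.77 from 1 to 2 kb, 2.20 from 5 to 10 kb and 1.54 from 50 to 200 kb. Around regions with Insm1 alone the first 500 bp held 6.04, and around those with Neurod1 alone 11.8. At 50 to 200 kb these classes had 1.504 and 1.58. Around all 3 kinds of region the density was thus similar far away and differed close by.

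**Figure D4:**
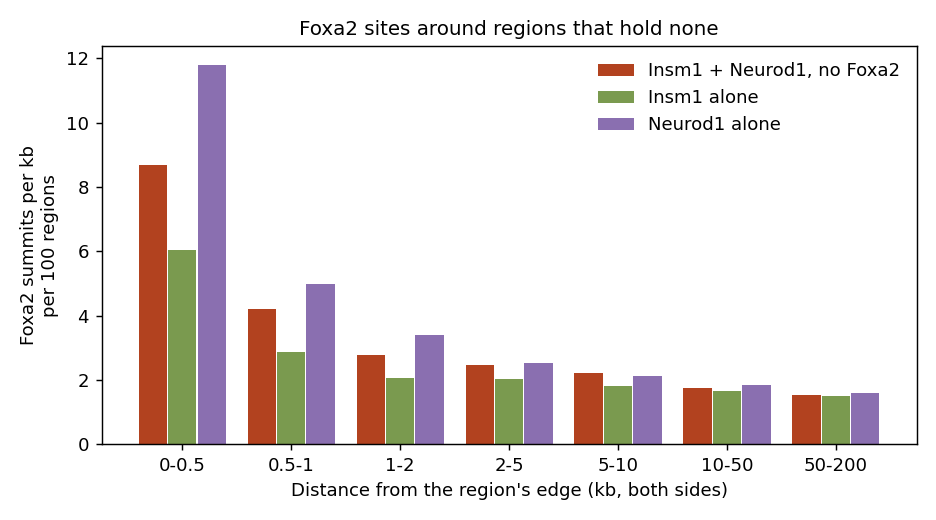
Foxa2 summits per kb and per 100 regions (y axis) by distance from the edge of the region in kb, both sides together (x axis), around regions with Insm1 and Neurod1 and no Foxa2, with Insm1 alone and with Neurod1 alone. In the first 0.5 kb the values are 8.69, 6.04 and 11.8, and beyond 50 kb all lie between 1.504 and 1.58.

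The edge of the rule can be read from single regions. Just inside it, a member on chromosome 14 at 119174108 to 119174310 touched a Foxa2 site of score 220 with a gap of 0 bp. A member on chromosome 16 at 85308254 to 85308421 stood 1 bp from a Foxa2 site of score 96, and one on chromosome 6 at 111323073 to 111323337 stood 2 bp from a Foxa2 site of score 235. These members had Insm1 scores of 258, 384 and 265 and Neurod1 scores of 113, 407 and 277. In all, 7 members had a Foxa2 site within 10 bp. Just outside it, 4 regions with all 3 factors owed that class to a Foxa2 overlap of 1 to 9 bp, on chromosomes 7, 10, 14 and 15, with Foxa2 scores of 26 to 73. On the scale of the score, Foxa2 sites in regions with all 3 factors went down to the floor of the list, 19. Only 176 of 6665 (2.64%, 2.28 to 3.05%) were in its lowest 10%. Over all 6665 the median Foxa2 percentile was 78.6 (77.9 to 79.3).

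The lists themselves limit what can be seen next to a site. Neighbouring sites of the same list were never closer than 405 bp for Foxa2, 345 bp for Insm1 and 403 bp for Neurod1. In 253 members (8.56%, 7.601 to 9.62%) a Foxa2 site lay nearer than that 405 bp. Those Foxa2 sites had a median score of 62 (57 to 70), against 42 for the whole Foxa2 list, and their summits were a median of 312 bp from the nearer of the Insm1 and Neurod1 summits. No pair of sites that close occurs within the Foxa2 list itself, so whether a weaker Foxa2 call inside these members was merged or dropped in processing cannot be told from these files.

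Members close to Foxa2 had stronger Neurod1 sites than those farther off. The median Neurod1 percentile was 67.2 (54.7 to 76.9) with a Foxa2 site within 100 bp and 61.8 (56.6 to 66.0) from there to 1 kb. It was 44.6 (40.7 to 47.2) from 1 to 10 kb, 43.3 (40.7 to 45.9) from 10 to 100 kb and 44.6 (37.8 to 48.4) beyond. The Insm1 percentile was 61.3 (49.6 to 75.8) up to 100 bp and 66.1 (60.4 to 68.7) from there to 1 kb. It was 52.3 (48.9 to 56.1) from 1 to 10 kb, 55.6 (52.9 to 57.2) from 10 to 100 kb and 57.2 (50.3 to 61.6) beyond, with intervals that overlap. The median summit distance moved little, between 28.5 and 34 bp in the 5 classes. For Neurod1 the intervals of the classes up to 100 bp and from there to 1 kb did not reach the medians beyond 1 kb. For Insm1 this held for the class from 100 bp to 1 kb, while the interval up to 100 bp covered the medians of all 3 farther classes.

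At the far end, 271 members (9.16%, 8.18 to 10.3%) had no Foxa2 site within 100 kb. The most isolated (chromosome 9, 18096512 to 18096715) was 1705 kb from the nearest Foxa2 site and scored 220 for Insm1 (percentile 83.9) and 53 for Neurod1 (percentile 19.7). The next (chromosome 7, 49948144 to 49948315) was 604 kb away and scored 148 for Insm1 and 51 for Neurod1. Another (chromosome 14, 34281032 to 34281197) was 484 kb away and scored 107 for Insm1 and 64 for Neurod1. None of the 3 had a Neurod1 site above the median of its list, but 3 regions do not stand for the class. Over all 271 the median Neurod1 percentile was 44.6 (37.8 to 48.4), against 45.9 (44.6 to 47.2) for all members.

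Some members combined a strong site of one factor with a barely listed site of the other. On the Insm1 side, the member on chromosome 2 at 58999870 to 59000031 scored 385 for Insm1 (percentile 96.5) and 48 for Neurod1 (percentile 7.27), with both summits on base 58999960. The next, on chromosome 3 at 27225823 to 27226001, had scores of 246 for Insm1 and 46, the floor of the list, for Neurod1, with summits 3 bp apart. The third, on chromosome 16 at 32419803 to 32419976, had scores of 314 for Insm1 and 48 for Neurod1.

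On the Neurod1 side, the member on chromosome 17 at 48151642 to 48151795 scored 85 for Insm1 (percentile 8.18) and 341 for Neurod1 (percentile 98.3), with summits 1 bp apart. A member on chromosome 14 (63008885 to 63009047) scored 79 for Insm1 and 198 for Neurod1. A further one on chromosome 13 (54795236 to 54795435) scored 82 for Insm1 and 223 for Neurod1. In 4 of these 6 lopsided members the summits lay within 25 bp of each other. Among all members 1267 of 2957 (42.8%) did so, and nothing is read from 6 regions.

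The widest member, on chromosome 5 at 139676383 to 139676865, spanned 482 bp with summits 288 bp apart and only 76 bp shared, and its scores were 91 for Insm1 and 70 for Neurod1. The next, on chromosome 3 (96073464 to 96073927), had summits 233 bp apart and shared 59 bp. The member on chromosome 9 at 20456093 to 20456546 had summits 284 bp apart and shared 61 bp. A union is wide where its sites overlap little, so this layout follows from choosing the widest.

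The share without Foxa2 differed between chromosomes. Among regions with Insm1 and Neurod1, the share without Foxa2 was 38.5% (33.9 to 43.2%) on chromosome 17, 38.04% (34.3 to 41.9%) on chromosome 11 and 35.4% (31.7 to 39.4%) on chromosome 7. It was 23.3% (19.4 to 27.7%) on chromosome 14 and 24.4% (20.3 to 29.1%) on chromosome 13. Chromosome 2 held 272 members among its 807 regions with Insm1 and Neurod1 (33.7%, 30.5 to 37.04%), the most of both. X held 24 members (0.81%, 0.55 to 1.20% of members, against 1.11% of regions with all 3 factors). Chromosomes with few Foxa2 sites for their Insm1 sites had the larger shares. There were 1.25 Foxa2 sites per Insm1 site on chromosome 11 and 1.32 on chromosome 17, and 1.89 on chromosome 14 and 1.99 on chromosome 13. Spearman's rho between this ratio and the share was -0.93 over the 19 autosomes. The ratio and the share rest on the same Foxa2 list, so the relation is in part arithmetic. With Foxa2 sites that met neither partner, counted per region with Insm1 and Neurod1, rho was -0.88. That ratio has the same denominator as the share and uses the same Foxa2 list, so it is no independent check.

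**Figure D5:**
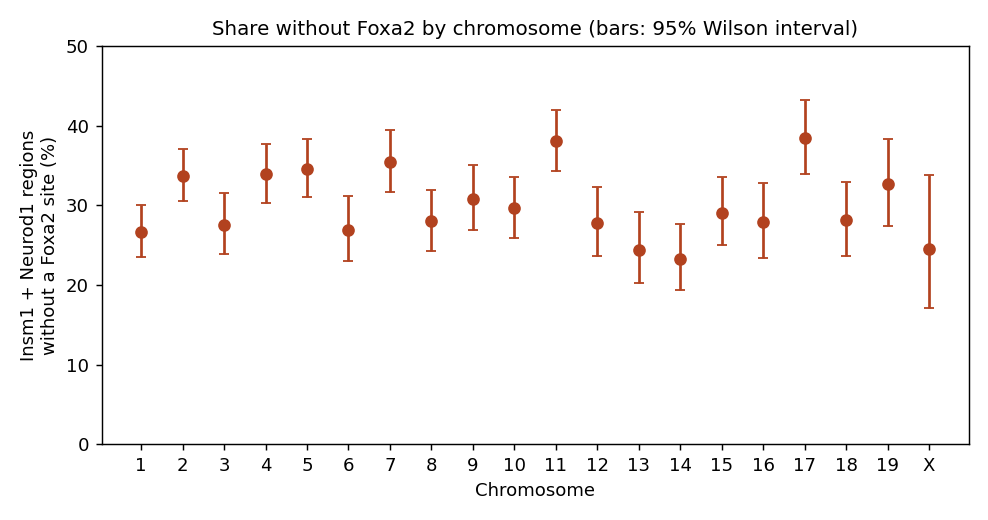
Percentage of regions with Insm1 and Neurod1 that hold no Foxa2 site, by chromosome, with 95% Wilson intervals. The values run from 23.3% on chromosome 14 to 38.5% on chromosome 17, and the interval is widest on X, where 24 of 98 regions hold no Foxa2 site.

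Members lay near other bound regions, and more often near each other than regions with all 3 factors lay near members. Another member stood within 50 kb of 804 members (27.2%, 25.6 to 28.8%), and a member within 50 kb of 1299 regions with all 3 factors (19.5%, 18.6 to 20.5%). A region with all 3 factors stood within 50 kb of 36.8% of members (35.1 to 38.6%), and another such region within 50 kb of 46.4% (45.2 to 47.6%) of regions with all 3. The single-factor regions had a member within 50 kb in 24.2% (23.0 to 25.4%) of cases with Insm1 alone and in 27.6% (26.1 to 29.1%) with Neurod1 alone. The last value and that of the members overlap in their intervals. The nearest region of any kind was a median of 9057 bp away, and it was Foxa2 alone for 41.7% of members (39.9 to 43.5%), close to the 43.1% that such regions make up of all regions.

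Joined by gaps of at most 50 kb, the members formed 2512 runs, of which 2153 held 1 member, 293 held 2, 52 held 3, 11 held 4 and 3 held more. The longest spanned 205 kb on chromosome 10, from 80809588 to 81014629, with 8 members. Within the same span lay 1 region with all 3 factors, 5 with Neurod1 alone, 1 with Insm1 alone and no other Foxa2 site. Its Insm1 scores ran from 99 to 167 and its Neurod1 scores from 58 to 254. The member at 80847078 to 80847279, one of those with the most members around it, scored 167 for Insm1 and 69 for Neurod1. The member with the Neurod1 score of 254, at 80879711 to 80879867, had summits 1 bp apart. One of the densest stretches lay on chromosome 7 from 135038968 to 135111119, where 5 members fell within 72.2 kb beside 1 region with Foxa2 alone. The member there at 135072357 to 135072506 had scores of 180 for Insm1 and 91 for Neurod1, and that at 135079012 to 135079183 had scores of 112 for Insm1 and 66 for Neurod1. The median Insm1 percentile was 56.1 (52.9 to 59.3) for the 804 members in runs of 2 or more and 55.6 (53.6 to 57.2) for single ones, and these intervals overlap.

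A pair of runs of 4 members, chosen after their values were seen, held no other bound region within their span. On chromosome 11, from 116433206 to 116454037, the 4 members within 20.8 kb had Insm1 scores of 218, 163, 157 and 141 and Neurod1 scores of 177, 117, 74 and 46, in order along the chromosome. The nearest Foxa2 site was 58.1 to 78.7 kb from them. On chromosome 7, from 150924718 to 150970108, the 4 members within 45.4 kb had Insm1 scores of 79, 170, 156 and 119 and Neurod1 scores of 70, 103, 80 and 153. They stood 118 to 163 kb from a Foxa2 site.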

How the data were processed

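ChIP-seq site lists of 3 factors, 1 per factor, were used as deposited. The tools named per the submitters' processing notes are MACS 1.4, Bowtie 0.12.7 and CASAVA, and the build is mm9. The series text speaks of repeats of Insm1 and Foxa2. How these entered the lists is unknown here, as are the settings, control, threshold and filters. The files carry a whole-number score per site, made by the authors, deposited with no stated scale. The read depth is unknown. A site's end was not counted as part of it. Percentiles are mean ranks less 0.5 within each list. The members and the choices of measures were made with earlier results of these data known. Named regions follow a rule on percentiles, Foxa2 gap, width and spacing, leaving out chromosome 18 and sites of at most 60 bp. Planned comparisons with motifs and genes were not run, since no mm9 sequence or annotation was used here. The scripts were tested on simulated lists. Computation used numpy 2.4.6, pandas 2.3.3, scipy 1.17.1 and matplotlib 3.10.9 under Python 3.11.15.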

Additional observations from a re-analysis of the deposited data

How the results depend on the processing

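No paired analysis was possible because each factor has 1 list and no replicate. Over 8 results and 43 alternative values, 27 stayed within the interval of the main value, or within 1.5 times for the count, and 16 moved. Not counted are 5 values with exactly 1 site of each factor, a setting that selects every member and so shows nothing about stability. With the sites at or below the median score of each list left out, Foxa2 sites included, 1470 regions met the rule. In the full lists, 905 members had both sites above the median. The setting thus also takes in regions whose Foxa2 site was left out as weak, and it describes a mixed set. In that setting 33.1% of regions with Insm1 and Neurod1 lacked Foxa2, the median summit distance was 28 bp, 47.0% of summits lay within 25 bp, the median percentiles were 77.1 for Insm1 and 76.9 for Neurod1, rho was 0.21 and 27.8% of members had a Foxa2 site within 10 kb. With the Foxa2 list limited to its 14607 best sites, there were 4323 members, the share without Foxa2 was 44.9%, the median Neurod1 percentile was 49.5 and 23.9% had a Foxa2 site within 10 kb. The share without Foxa2 was 33.1% with centres within 100 bp, 27.7% with sites widened by 500 bp, 26.6% with no Foxa2 site allowed within 1 kb and 27.8% within 500 bp. Without Foxa2 within 1 kb, rho was 0.26. The shares with no Foxa2 site allowed within 1 kb or 500 bp can only fall, since members are taken out of the same 9622 regions. For the other shifts the cause was not tested where the choice of sites does not fix it. The settings with 500 bp around the members and with site ends counted were chosen after seeing the data. Alternatives that need motifs or transcription starts were not run.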
